A study of Mus musculus with 24 samples.

Results

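M1, a mouse myeloid leukaemia cell line, was compared with mouse bone marrow cells for the level of every microRNA (miRNA) assay in the deposited table. The comparison used the replicates titled M1 and CT-BM, 3 of each, which are 6 of the 12 replicates in the series. The other replicates, of a lymphocytic leukaemia line and a teratocarcinoma line, served only the estimate of the spread between replicates. Per the labels, CT-BM is primary mouse bone marrow, which the design text describes as flushed from femur and tibia. Its growth protocol nevertheless describes cells kept in suspension culture, and the series title calls them stem cells, so the state of these cells is not settled by the labels. M1 is 1 established line at passage 3, grown singly in suspension, and neither group received a treatment. The labels give no genotype, strain or age and do not say whether the replicates came from separate cultures or animals, so p-values here reflect no more than the spread of these samples, possibly technical in origin. RNA was run on 2 quantitative PCR cards, A and B, which together carried 584 miRNA assays (375 on card A and 209 on card B), 517 of them named for mouse and 67 for rat.

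A miRNA is cut from a hairpin precursor, and 1 arm of the hairpin usually becomes the guide strand while the other, marked with a star in these assay names, is mostly degraded. The guide recognises messenger RNAs chiefly through its seed, the bases near its 5′ end, so miRNAs with the same seed form families with overlapping targets. In blood cells, miR-223 is known from granulocytes and monocytes, miR-150 and miR-342 from lymphocytes, miR-451 and miR-486 from red cell precursors, and miR-125, miR-99, miR-126 and miR-130a from stem and progenitor cells.

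The sequences on which the results turn are given 5′ to 3′ from RefSeq (mouse build GRCm38.p6), with the seed, bases 2 to 8, in capitals. Of 66 assay names looked up, 62 had a mature sequence there. The first set comes from 3 related gene clusters in which a member of the miR-99 and miR-100 family lies beside a let-7 and a miR-125. It is shown because assays named for these neighbours differed in opposite directions or by unequal amounts.
miR-99a: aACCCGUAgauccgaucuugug
miR-99b: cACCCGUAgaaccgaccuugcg
miR-100: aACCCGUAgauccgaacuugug
miR-125a-5p: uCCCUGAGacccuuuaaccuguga
miR-125b-5p: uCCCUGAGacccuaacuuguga
let-7a: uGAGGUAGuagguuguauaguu
let-7c: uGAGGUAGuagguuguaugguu
let-7e: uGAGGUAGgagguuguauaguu
miR-99a and miR-100 differ at 1 base outside the seed, and let-7a differs at 1 base each from let-7c and let-7e. On chromosome 17, miR-99b (chr17:17830194-17830215), let-7e (chr17:17830366-17830387) and miR-125a-5p (chr17:17830817-17830840) follow each other on the plus strand in the genes Mir99b, Mirlet7e and Mir125a. miR-99a lies at chr16:77598940-77598961 in Mir99a and miR-100 at chr9:41531437-41531458 in Mir100, both on the plus strand.

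The second set holds families with 1 seed whose members differed unequally between M1 and bone marrow.
miR-130a: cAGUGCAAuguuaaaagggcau
miR-130b: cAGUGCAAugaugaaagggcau
miR-221: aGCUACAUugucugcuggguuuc
miR-222: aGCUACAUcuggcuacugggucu
miR-148a: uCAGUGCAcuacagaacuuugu
miR-148b: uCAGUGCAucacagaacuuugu
miR-152: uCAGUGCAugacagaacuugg
miR-130a and miR-130b differ at 2 bases and miR-148a and miR-148b at 2, while miR-221 and miR-222 share the seed but differ at 12 of 23 positions. miR-221 (chrX:19146307-19146329) and miR-222 (chrX:19146901-19146923) are neighbours on the minus strand, in Mir221 and Mir222.

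The third set gives both arms of the hairpins whose arm balance differed most between M1 and bone marrow.
miR-30a: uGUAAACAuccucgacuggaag
miR-30a*: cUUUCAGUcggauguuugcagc
miR-503: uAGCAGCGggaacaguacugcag
miR-503*: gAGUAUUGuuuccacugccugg
miR-30a (chr1:23272274-23272295) and miR-30a* (chr1:23272315-23272336) lie on the plus strand in Mir30a, and miR-503 (chrX:53054027-53054049) and miR-503* (chrX:53053987-53054008) on the minus strand in Mir503. The last set marks blood cell types or stood among the larger differences: miR-223 (chrX:96242884-96242905, plus strand, Mir223), miR-342-3p (chr12:108658680-108658702, plus strand, Mir342), miR-155 (chr16:84714143-84714165, plus strand, Mir155), and both arms of miR-9, which has 3 genes.
miR-223: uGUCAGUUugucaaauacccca
miR-342-3p: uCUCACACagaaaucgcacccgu
miR-155: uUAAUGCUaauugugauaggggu
miR-9: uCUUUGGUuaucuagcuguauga
miR-9*: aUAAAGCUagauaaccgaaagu

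Each well gives a threshold cycle (Ct), which falls by 1 when the template doubles. Of the 4488 wells of both groups, 49.8% did not amplify; a card run held 370 to 380 wells. A Ct of 35 was taken as the limit of detection, and a miRNA's level is the mean Ct of 3 control RNAs on the same card (MammU6, snoRNA135 and snoRNA202) minus its own Ct, a log2 value. An assay was tested where every replicate of at least 1 group was detected, with limma's moderated test and Benjamini-Hochberg adjustment over all tested assays, and a call needed both an adjusted p under 0.05 and a 2-fold difference. Where 1 group had no detected replicate, it was set at the Ct limit and the fold is a lower bound, written as at least that many fold. Assays amplify with unequal efficiency, so levels are compared between groups and not between miRNAs, and means are given ± SD over 3 replicates unless fewer were measured. The controls themselves came earlier in M1: the mean of the 3 shifted by -2.36 cycles on card A and -1.82 on card B, with shifts of -2.17 (MammU6), -2.23 (snoRNA135) and -2.67 (snoRNA202) cycles on card A and -0.784, -2.10 and -2.59 on card B. In M1 replicate 2 the 4 MammU6 wells of card A spread over 3.23 cycles, against 0.547 to 1.04 in the other 5 replicates.

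Fewer of the assayed miRNAs were detected in M1 than in bone marrow, and more of its differences were decreases than increases. Detected assays made up 52.5%, 51.9% and 50.8% of those present in the bone marrow replicates and 45.0%, 44.3% and 44.8% in the M1 replicates. Every M1 replicate lay below every bone marrow replicate, a difference of -7.01 percentage points, with an exact two-sided permutation p of 0.1, the smallest that 3 against 3 allows. Of 584 assays, 235 were detected in every replicate of both groups, 63 in every bone marrow and no M1 replicate, 23 in every M1 and no bone marrow replicate, and 258 in neither group, while 5 were mixed.

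Of 325 tested assays, 226 were called (69.5%): 82 were higher in M1 (25.2%) and 144 lower (44.3%). The median difference over all 325 was -0.59 on the log2 scale. Among the 235 assays detected throughout, where both levels were measured, 61 were higher and 78 lower, with a median of -0.10. The remaining calls were mostly bounds, 21 higher and 63 lower. The median SD between replicates of these 235 assays was 0.239 in bone marrow and 0.279 in M1, well under the size of most called differences. The split between directions depended on the scaling. It was 53 higher and 162 lower against snoRNA202 alone, 104 and 131 against the mean of the assays detected in all 12 replicates, and 141 and 105 after quantile normalization, with medians of -1.03, -0.09 and 0.61. Against MammU6 alone it was 92 and 124, with a median of -0.01. Directions below are relative to the 3 controls. Counts for each list below stand against the shares over all 325 assays, 25.2% higher and 44.3% lower. Assays tested through 1 group alone tend to lean toward that group by selection, and list counts and medians include them. A difference that was not called carries no direction, and several of those given below change sign under another scaling.

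**Figure D1:**
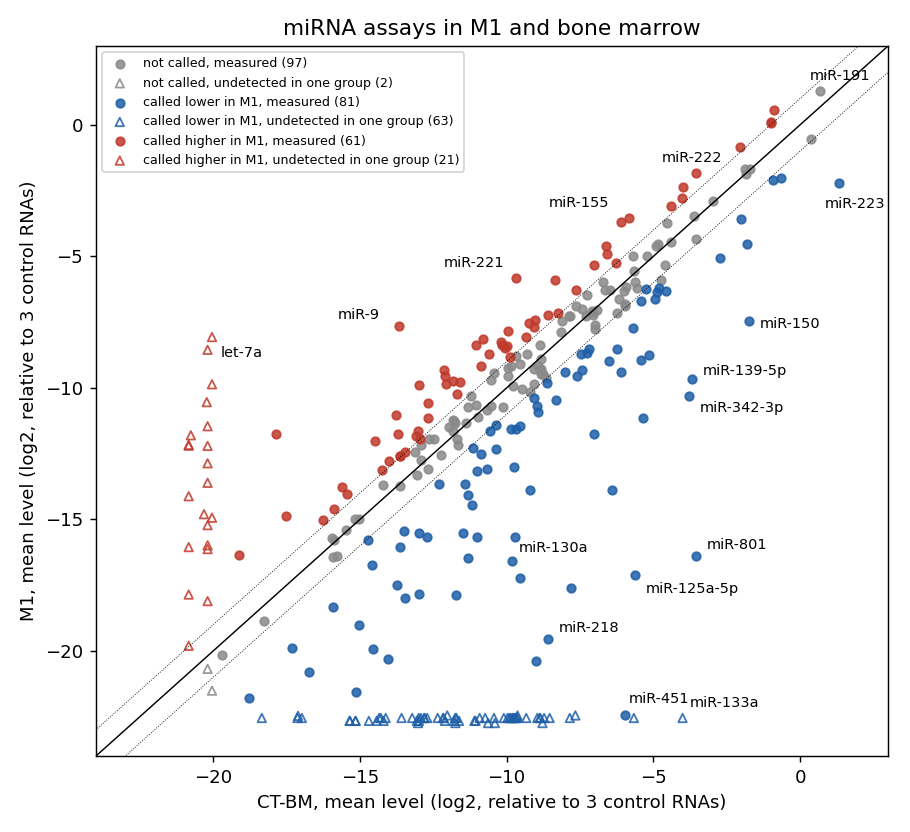
Mean level (log2, relative to 3 control RNAs) of each of the 325 tested assays in CT-BM (bone marrow, x axis) and M1 (y axis), 3 replicates a group. Filled points were measured in both groups and triangles were undetected in 1 group and sit at its Ct limit; colours mark the 82 assays called higher and 144 called lower in M1, and dotted lines mark 2-fold. miR-133a, miR-451 and miR-801 lie far below the diagonal and let-7a (an uncertain bound), miR-9 and miR-221 above it.

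**Figure D2:**
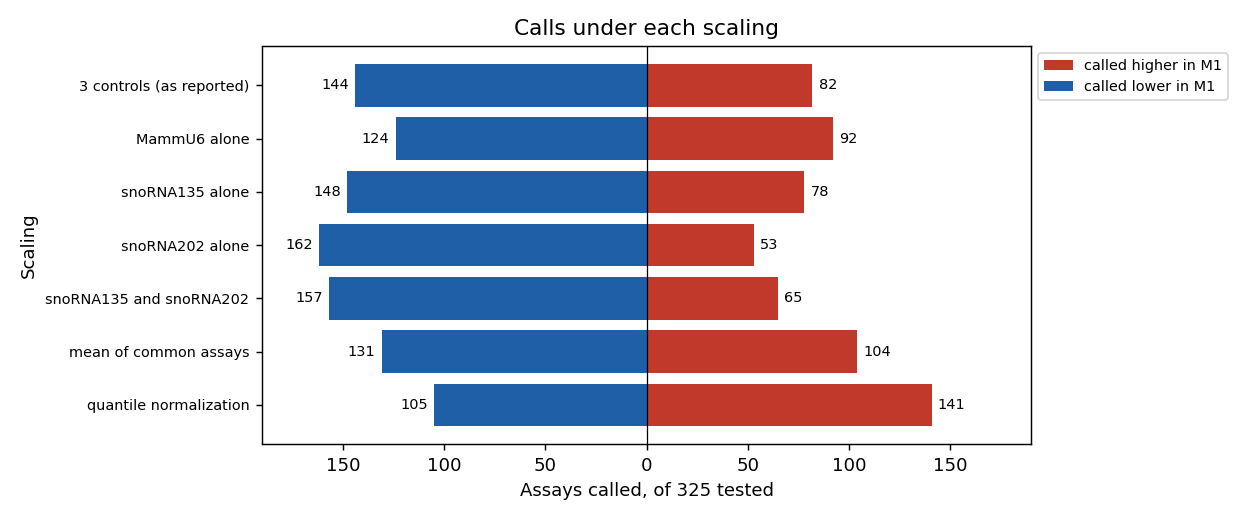
Number of assays called lower (left) and higher (right) in M1 than in CT-BM under each scaling, of 325 tested. Decreases outnumber increases under all scalings drawn except quantile normalization, where 141 assays were higher and 105 lower.

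The earliest Ct values on card A came largely from the same miRNAs in both groups. miR-223, miR-191, miR-16, miR-19b, miR-106a, miR-17, miR-484, miR-150, miR-126-3p and miR-24 were the 10 earliest in bone marrow, and 8 of these were among the 10 earliest in M1. miR-150 and miR-126-3p dropped out, and miR-20a and miR-222 took their places. miR-191 was first in M1, at 1.25, 1.29 and 1.29 against 0.66, 0.69 and 0.71 in bone marrow, and the difference was not called (1.5-fold, adjusted p = 0.066). miR-16, a cell cycle restraining miRNA, stood at 0.56, 0.24 and 0.27 in bone marrow and -0.52, -0.62 and -0.52 in M1, a difference that fell short of 2-fold (log2 difference -0.91). On card B the earliest signal was miR-709 in bone marrow and miR-720, an annotation since recognised as a transfer RNA fragment, in M1. miR-720 was 3.22-fold higher in M1 (log2 difference 1.69, SE 0.23, adjusted p = 2.6e-05), and this call was lost against snoRNA202 alone (0.92).

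Among the miRNAs of granulocytes, monocytes and innate immune signalling, 9 were tested, 5 were lower in M1, 2 were higher and 2 were not called, with a median of -1.56 against -0.59 over all assays. The split is near that over all assays, of which 44.3% were lower and 25.2% higher. As a check of the label of a myeloid line, the listed granulocyte and monocyte markers were miR-223, miR-142-3p and miR-146a. They were detected in all 3 M1 replicates, each at a lower level than in bone marrow. miR-142-3p comes from a hairpin of all blood lineages, so it cannot tell a myeloid line from another blood line. All 3 lymphocyte, both endothelial and all 5 epithelial markers were detected in every M1 replicate too, so detection alone does not set M1 apart as myeloid. miR-223, which restrains granulocyte production and activation, had the earliest Ct of card A in bone marrow, at levels of 1.43, 1.24 and 1.32. In M1 it stood at -2.41, -2.09 and -2.14. The groups did not overlap, and M1 was 11.7-fold lower (log2 difference -3.55, SE 0.28, adjusted p = 1.2e-07).

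Both arms of miR-142, a hairpin of all blood lineages, were lower in M1. miR-142-3p was -2.80, -2.66 and -2.71 in bone marrow and -4.73, -5.72 and -4.76 in M1, with replicate 2 the lowest of the M1 values and no overlap (5.09-fold, log2 difference -2.35, SE 0.55, adjusted p = 0.0019). miR-142-5p was 4.44-fold lower (log2 difference -2.15). miR-146a, a brake on Toll-like receptor signalling, measured -1.94, -1.96 and -2.10 in bone marrow and -3.63, -3.59 and -3.47 in M1, a 2.95-fold decrease (log2 difference -1.56, SE 0.26, adjusted p = 0.00015). That call was lost after quantile normalization (-0.82). Its relative miR-146b stood at -4.41 ± 0.23 in bone marrow and -4.45 ± 0.08 in M1, and was not called. miR-147, which is induced in stimulated macrophages, was detected in every bone marrow replicate (-12.81, -12.43 and -13.13) and in no M1 replicate, at least 865-fold lower.

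The 2 higher members of the list were miR-155 and miR-132, both known to be induced by inflammatory signals. miR-155, which drives a myeloproliferative state when overexpressed in mouse marrow, stood at -6.04, -6.13 and -6.10 in bone marrow and -3.65, -3.69 and -3.70 in M1. The replicates of each group lay within 0.1 of each other and the groups were far apart, a 5.32-fold increase (log2 difference 2.41, SE 0.30, adjusted p = 1.1e-05). miR-132 was more variable in bone marrow, at -7.61, -8.30 and -9.11, against -5.71, -6.08 and -5.96 in M1. All M1 values were higher (5.37-fold, log2 difference 2.42, SE 0.31, adjusted p = 1.4e-05). miR-21, an abundant miRNA of many tumours, did not separate the groups, with -5.82, -6.07 and -6.13 in bone marrow and -6.22, -6.77 and -5.91 in M1 (log2 difference -0.29, adjusted p = 0.5).

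Most tested lymphocyte and red cell miRNAs were lower in M1. Of 4 tested lymphocyte miRNAs, 3 were lower and none higher, with a median of -3.81, and miR-181a (-1.17) was not called. miR-150, which regulates Myb in B and T cells, stood at -1.61, -1.82 and -1.80 in bone marrow and -7.49, -7.51 and -7.40 in M1, a 52.8-fold decrease (log2 difference -5.72, SE 0.23, adjusted p = 8.2e-11). miR-342-3p, encoded in an intron of Evl, stood at -3.70, -3.85 and -3.83 and -10.22, -10.50 and -10.22. It was 91.6-fold lower (log2 difference -6.52, SE 0.25, adjusted p = 5.4e-11), and for both miRNAs the gap was many times the replicate spread. miR-181a missed the threshold in the reported fit, at -4.75 ± 0.20 in bone marrow and -5.91 ± 0.73 in M1, but passed it against snoRNA202 alone (-1.49). miR-181c was 3.71-fold lower, a call lost after quantile normalization (-0.80).

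Of the red cell miRNAs, miR-451 was at -5.98, -5.90 and -6.04 in bone marrow. In M1 it was at the Ct limit in replicate 1 and within 0.1 cycles of it in replicate 3, with no well present for replicate 2, and its log2 difference was -16.47. miR-486, -9.97, -9.73 and -10.20 in bone marrow, was not detected in M1, at least 6118-fold lower. These bulk samples cannot tell fewer cells of a type from less RNA per cell, and bone marrow holds all of these lineages while M1 is a single line. The marker lists show the range: the summed level (log2) of the 3 lymphocyte markers was -1.38 to -1.16 in bone marrow and -5.99 to -4.94 in M1, and that of the 3 granulocyte and monocyte markers 1.48 to 1.63 and -1.70 to -1.50. How far the mixture of cells in bone marrow accounts for any single difference was not tested.

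**Figure D3:**
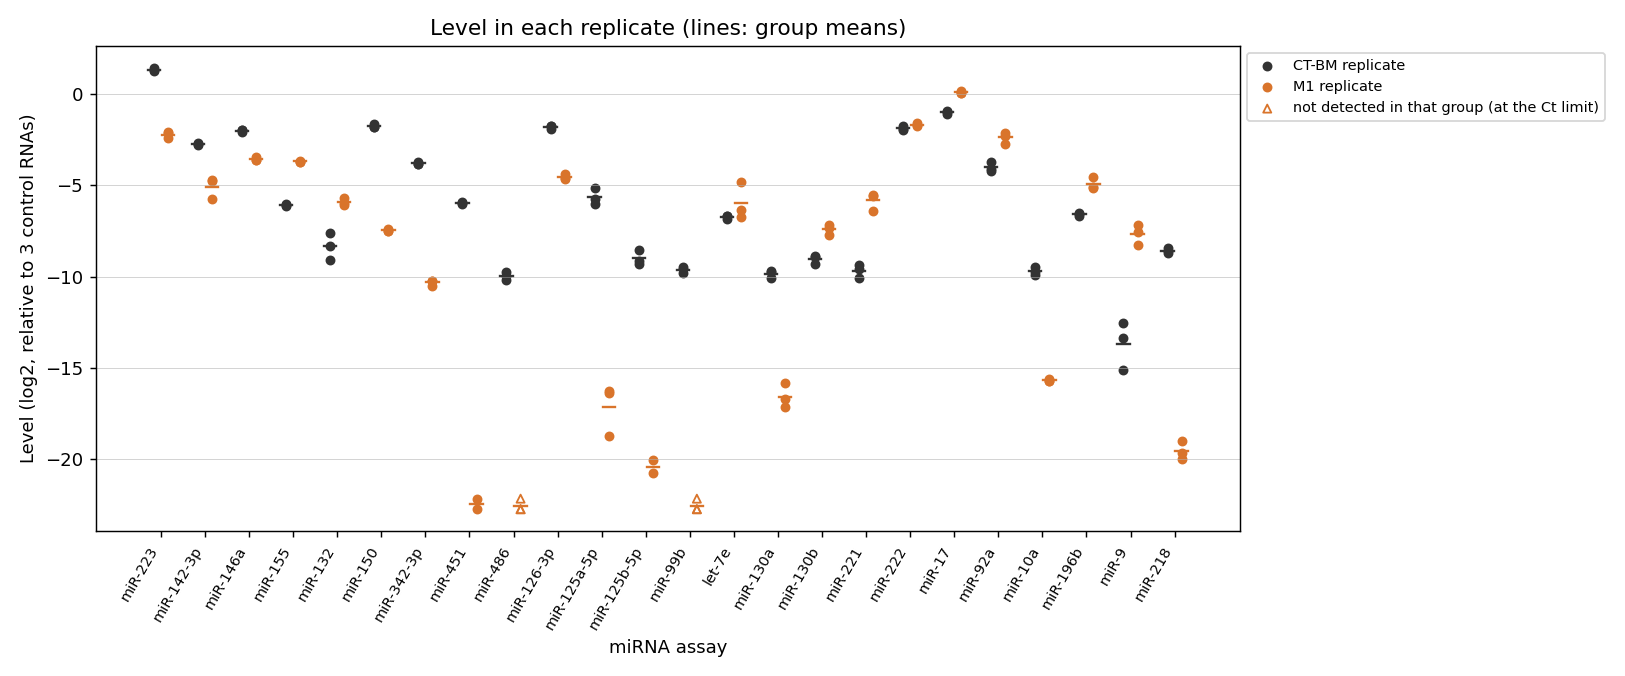
Level (log2, relative to 3 control RNAs) in every replicate of CT-BM and M1 for 24 miRNA assays of blood lineages, families and clusters, with lines at the group means. For miR-223, miR-150, miR-130a and miR-218 all M1 points lie below all CT-BM points, for miR-155, miR-221 and miR-9 all lie above, and for let-7e and miR-222 the groups overlap; triangles mark undetected replicates at the Ct limit.

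Of the 11 stem and progenitor miRNAs, 8 were lower in M1, 1 was higher and 2 were not called, with a median of -6.73 against -0.59 over all assays. The largest differences were in the miR-99 and miR-125 families, which are abundant in blood stem cells; miR-125 members expand these cells when overexpressed. miR-100 was at -7.71, -7.92 and -7.91 in bone marrow, miR-99b at -9.49, -9.58 and -9.82 and miR-99a at -10.29, -9.95 and -10.04, and none of the 3 was detected in any M1 replicate. They were at least 26600-fold, 7729-fold and 5603-fold lower.

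miR-125a-5p and miR-125b-5p, which share the seed CCCUGAG, were lower by similar amounts. miR-125a-5p was -5.99, -5.72 and -5.12 in bone marrow and -16.29, -18.72 and -16.35 in M1, where replicate 2 was the lowest, and all M1 values lay far below bone marrow (2909-fold, log2 difference -11.51, SE 0.83, adjusted p = 4.8e-08). miR-125b-5p was -9.13, -8.55 and -9.33 in bone marrow and -20.04 and -20.76 in the 2 M1 replicates measured (2695-fold, log2 difference -11.40, SE 0.45, adjusted p = 3.7e-10). The 2 arms of the miR-126 hairpin, encoded in the Egfl7 gene of endothelium and blood stem cells, were 6.61-fold (miR-126-3p) and 4.87-fold (miR-126-5p) lower. miR-126-3p stood at -1.75, -1.91 and -1.76 in bone marrow and -4.63, -4.61 and -4.35 in M1, with no overlap. miR-155, described above, was the 1 higher member.

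The guide strands of the let-7 neighbours of these genes were not called lower, whereas the star strand let-7c-1* was. In the cluster Mir99b, Mirlet7e and Mir125a, let-7e stood at -6.82, -6.68 and -6.68 in bone marrow and -4.84, -6.73 and -6.35 in M1, the groups overlapped and it was not called (log2 difference 0.75, adjusted p = 0.13), whereas miR-99b and miR-125a-5p were lower by 12.92 and 11.51 on the log2 scale. let-7e was called higher without M1 replicate 2 (1.13), against the mean of common assays (1.31) and after quantile normalization (1.51). In the cluster Mir99a, Mirlet7c-1 and Mir125b-2, let-7c was 2.93-fold higher, at -10.48, -9.53 and -9.91 in bone marrow and -7.69, -8.80 and -8.77 in M1 (log2 difference 1.55, SE 0.47, adjusted p = 0.0091). The star strand let-7c-1* was detected in bone marrow (-15.14 ± 0.40) and not in M1, at least 183-fold lower, and mature let-7c comes from 2 genes. The increase of let-7c therefore cannot be placed at this cluster.

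In the cluster Mir100, Mirlet7a-2 and Mir125b-1, let-7a was not detected in any bone marrow replicate and stood at -8.33 and -8.77 in the 2 M1 replicates measured, at least 3188-fold higher. let-7c, which differs from it at 1 base, and let-7a* were both detected in those bone marrow replicates. Whether the let-7a assay failed there was not tested, so this bound and call are uncertain, in the counts below as well. The assay let-7a* was detected in both groups, at -13.11, -12.79 and -13.01 in bone marrow and -9.61, -10.05 and -9.99 in M1. It was 8.5-fold higher (log2 difference 3.09, SE 0.22, adjusted p = 3.4e-08). Its name does not say which let-7a gene it comes from, so this increase cannot be placed at this cluster. let-7a, let-7c and miR-125b-5p each come from more than 1 gene, and their assays do not tell the genes apart. Across all neighbouring miRNA genes, 255 of 301 tested mouse assays could be placed, and 39 groups held at least 2 hairpins on 1 strand within 100 kb of the next. Calls in both directions occurred in 3 of these groups, which include the clusters of Mir99a and Mir100, while 14 combined higher and uncalled assays and 13 lower and uncalled ones. In the clusters of Mir99a and Mir100 the higher calls were let-7c, let-7a and let-7a*, which were not placed at a single gene.

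Of the 8 tested guide strands of the let-7 family, which restrains growth and promotes differentiation, 3 were higher, 0 lower and 5 not called, with a median of 0.70 against -0.59 over all assays. The count includes the uncertain call of let-7a, and over all assays 25.2% were higher. The median was 0.34 without M1 replicate 1 and 0.49 without bone marrow replicate 1, each with 2 higher calls. The third higher member, let-7b, was -6.61, -6.32 and -8.11 in bone marrow and -3.92, -6.28 and -5.75 in M1, 3.24-fold higher with an adjusted p of 0.048. It lost its call without M1 replicate 1 (1.00) or 3 (1.92), or without bone marrow replicate 1 (1.90) or 3 (1.15). It also lost it against MammU6 alone (limma adjusted p = 0.067), with a replicate block (0.068), in a fit of M1 and CT-BM alone (0.055), with robust and trended moderation (0.058), with a Ct limit of 40 (0.052) and among assays detected in both groups (0.053). let-7d, let-7g and let-7i, at -0.07, -0.10 and -0.43, and let-7f (0.66) were not called, and 5 members were called higher against the mean of common assays.

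miR-130a and miR-130b, which share the seed AGUGCAA, differed in opposite directions. miR-130a, a megakaryocyte and stem cell miRNA, was -9.68, -9.72 and -10.09 in bone marrow and -17.16, -16.71 and -15.83 in M1, a 106-fold decrease (log2 difference -6.73, SE 0.37, adjusted p = 2.8e-09). miR-130b was -8.94, -8.86 and -9.32 and -7.34, -7.70 and -7.18, a 3.09-fold increase (log2 difference 1.63, SE 0.26, adjusted p = 9.8e-05). Neither pair of groups overlapped, and miR-301a (0.01) and miR-301b (-0.62) were not called.

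The X-linked neighbours miR-221 and miR-222, whose known targets include Kit and the cell cycle inhibitor p27, also differed unequally. miR-221 stood at -9.37, -9.59 and -10.10 in bone marrow and -5.56, -6.37 and -5.50 in M1, all M1 values being higher (14.7-fold, log2 difference 3.87, SE 0.33, adjusted p = 2.6e-07). miR-222 stood at -1.76, -1.90 and -1.95 and -1.77, -1.68 and -1.57, the groups overlapped and the difference was 0.20 (SE 0.36, adjusted p = 0.63). In the third family, miR-148a and miR-152, which target the DNA methyltransferase Dnmt1, were detected in every bone marrow replicate (-8.95 ± 0.12 and -9.33 ± 0.18) and in no M1 replicate, at least 12339-fold and 9509-fold lower. miR-148b, with the same seed, was present in both at -11.81 ± 0.23 and -11.22 ± 0.46 and was not called.

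Of 5 listed guide assays of the Hox gene clusters, 2 were tested, and they differed in opposite directions. miR-10a, of the HoxB cluster, was -9.49, -9.91 and -9.73 in bone marrow and -15.69, -15.73 and -15.61 in M1, 62.5-fold lower (log2 difference -5.97, SE 0.27, adjusted p = 3.1e-10). miR-196b, of the HoxA cluster and raised in leukaemias with MLL fusions, was -6.53, -6.65 and -6.58 and -5.15, -4.54 and -5.09, 3.17-fold higher (log2 difference 1.66, SE 0.46, adjusted p = 0.0059). Its call was lost against snoRNA202 alone (1.35). The other 3 listed assays were undetected in both groups. The star strand miR-196a*, outside this list and added after its values were seen, was detected in both groups and not called (-0.59), though it was called higher after quantile normalization (4.39).

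Of 11 tested guide strands of the growth-promoting miR-17-92 cluster and its paralogs, 6 were higher in M1, 0 lower and 5 not called. Over all assays 25.2% were higher and 44.3% lower. The median of the list was 1.05 against -0.59. miR-19b stood at -0.85, -0.69 and -1.08 in bone marrow and 0.64, 0.30 and 0.75 in M1 (2.7-fold, log2 difference 1.43, SE 0.25, adjusted p = 0.00021). miR-92a was 3.09-fold higher, at -4.0 ± 0.28 in bone marrow and -2.37 ± 0.29 in M1, and its neighbours miR-17 (1.09), miR-19a (1.3) and miR-20a (1.23) and the paralog miR-106a (1.05) were higher by log2 differences just over 1. Against snoRNA202 alone only miR-19b and miR-92a kept their calls (1.12 and 1.31), against the mean of common assays 8 were higher, and miR-106a also lost its call without M1 replicate 3 (1.00). miR-18a (0.77), miR-20b (0.80), miR-93 (0.29), miR-106b (0.11) and miR-25 (-0.05) were not called, the last 3 being the guides of a single paralogous cluster in the gene Mcm7.

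Other broadly expressed families showed small or mixed differences. Of 6 tested relatives of miR-15 and miR-16, which restrain cyclins, 2 were lower and none higher (median -0.91). miR-497 was detected in bone marrow only, at least 3601-fold lower. miR-195 (-1.0) sat at the threshold and lost its call without M1 replicate 2 (-0.76) or bone marrow replicate 2 (-0.89). It also lost it against MammU6 alone, snoRNA135 alone or the mean of common assays and after quantile normalization, each with 1 lower call in the list. Against snoRNA202 alone 4 were lower. None of the 3 miR-29 or 5 miR-30 guides was called, and the medians of 0.31 and 0.08 turned to -0.01 and -0.23 against snoRNA202 alone; that of miR-30 was also -0.02 without M1 replicate 3 and -0.06 without bone marrow replicate 3. Of the clusters of miR-23, miR-24 and miR-27, miR-23b (1.80) and miR-27b (1.05) were higher while miR-24 (-0.04) was not called. miR-27b lost its call without M1 replicate 1 (0.99) or 3 (0.92) or bone marrow replicate 3 (0.94).

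Among miR-26, miR-101 and miR-103, miR-107 (1.52) and miR-101b (1.10) were higher and miR-26a (-1.43) lower. The call of miR-101b was lost against snoRNA202 alone (0.34), snoRNA135 alone (0.83) and both snoRNAs (0.58). That of miR-26a was lost against the mean of common assays (-0.87) and after quantile normalization. The list had a median of 0.07 that turned to -0.25 against snoRNA202 alone and -0.05 without bone marrow replicate 3. The miR-322 cluster on the X chromosome had 2 of 8 assays lower and none higher, with a median of -0.17 that turned to 0.31 against MammU6 alone and 0.60 after quantile normalization. Lower calls fell to 1 without M1 replicate 2 or bone marrow replicate 1, and against MammU6 alone. Its largest difference was miR-503, a cell cycle miRNA, at -6.59, -7.38 and -7.10 in bone marrow and -12.17, -11.64 and -11.41 in M1 (26.3-fold lower, log2 difference -4.72, SE 0.29, adjusted p = 7.1e-09). miR-322 and miR-351 of that cluster were at -0.64 and 0.88 and not called. miR-34a, a target of p53, was detected in every bone marrow replicate (-8.36, -8.93 and -8.88) and in no M1 replicate, at least 14504-fold lower, while the wider miR-34 and miR-449 list had 3 of 5 lower with a median of -1.04 that turned to 0.54 after quantile normalization. Lower calls in that list fell to 1 without M1 replicate 3 or bone marrow replicate 3, and against MammU6 alone or the mean of common assays.

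**Figure D4:**
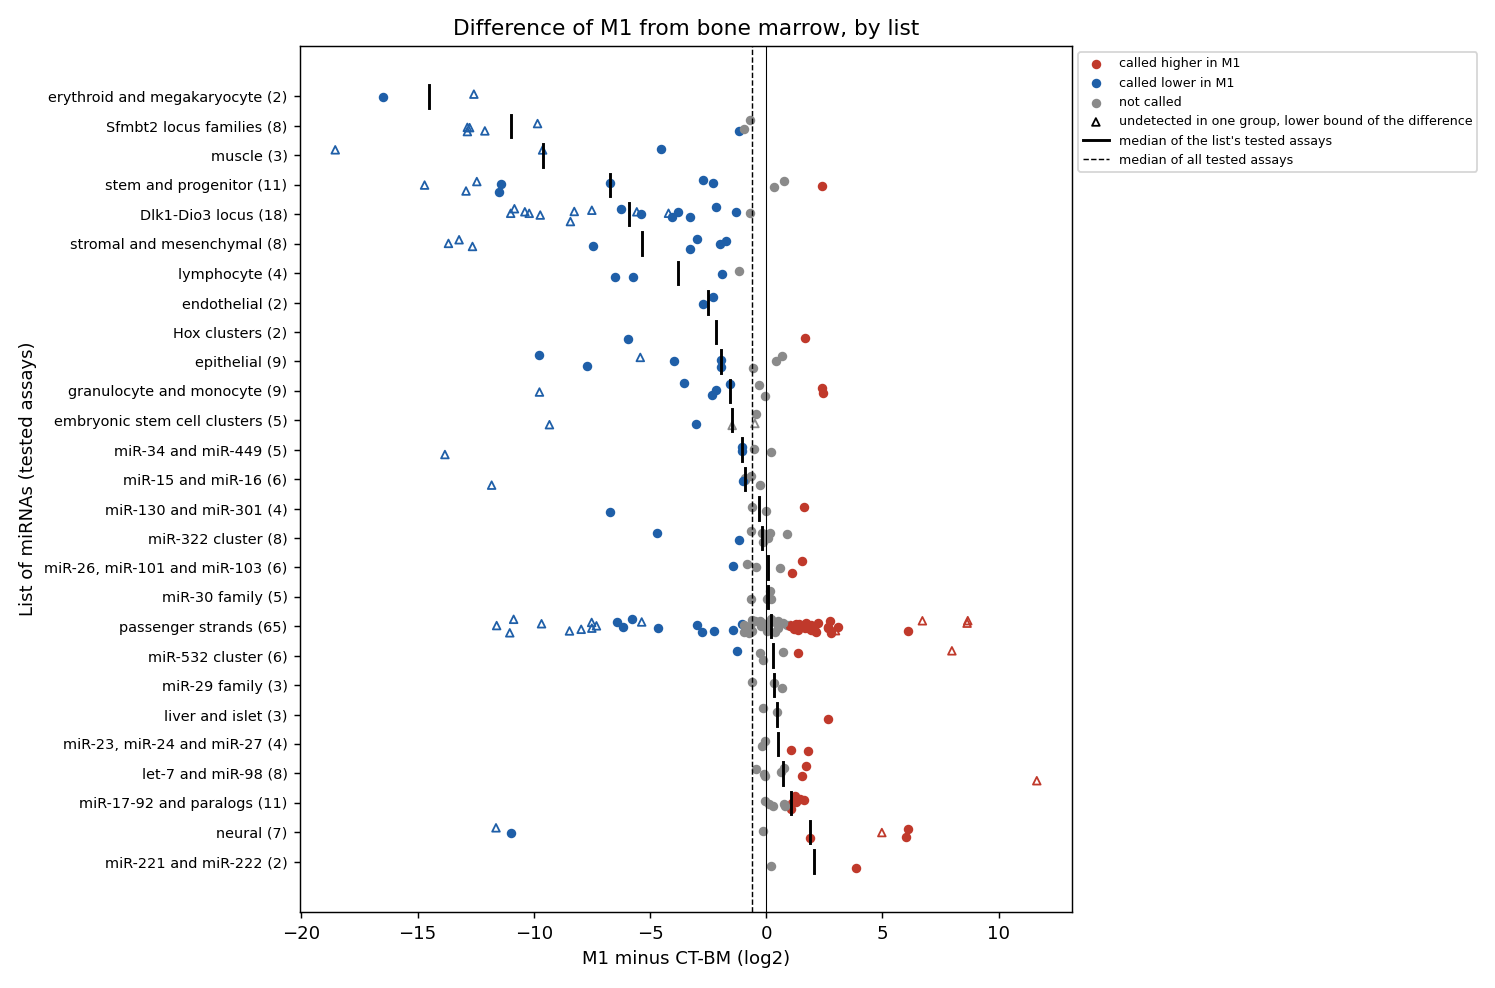
Difference of M1 from CT-BM (log2) for each tested assay, by list, with the number tested in parentheses; black bars are list medians, the dashed line is the median of all 325 assays (-0.59), and triangles are bounds. The lists of red cell, muscle, stem and progenitor and Dlk1-Dio3 miRNAs lie left of that line and miR-17-92 and let-7 right of it; the medians of 10 lists, among them miR-322, miR-30 and passenger strands, changed sign under at least 1 other scaling.

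Tested miRNAs known from stroma, muscle and epithelium were mostly lower or undetected in M1. All 8 tested stromal and mesenchymal miRNAs were lower, with a median of -5.37, and miR-143, miR-152 and miR-214 were undetected in M1. miR-145, of smooth muscle and fibroblasts, was -6.46, -6.15 and -6.65 in bone marrow and -14.16 and -13.59 in the 2 M1 replicates measured, 175-fold lower (log2 difference -7.45, SE 0.32, adjusted p = 7.3e-10), and miR-199a-3p was 3.93-fold lower. All 3 tested muscle miRNAs were lower. miR-133a, of skeletal and heart muscle, stood at -3.80, -4.40 and -3.81 in bone marrow and was undetected in M1, at least 381708-fold lower, the largest bound among all assays, and miR-1 (at least 788-fold) and miR-206 (23-fold, a call lost after quantile normalization at -0.16) were lower as well. The summed level of the 3 muscle markers was -4.39 to -3.79 in bone marrow and -18.5 to -17.5 in M1, where miR-206 alone was detected, and their part in other differences was not tested.

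Of 9 tested epithelial miRNAs, 6 were lower and none higher, against 44.3% lower and 25.2% higher over all assays, with a median of -1.97. After quantile normalization 4 were higher and 4 lower and the median was 0.39. miR-31 stood at -7.74, -7.68 and -7.98 in bone marrow and -16.84, -17.72 and -18.23 in M1 (889-fold lower, log2 difference -9.80, SE 0.30, adjusted p = 5.4e-12), and miR-203, of skin and stratified epithelium, at -9.46, -9.47 and -9.68 and -16.90, -18.75 and -16.05 (207-fold lower). miR-200c was 3.88-fold lower, while miR-200a (0.69) and miR-200b (-0.57) were not called.

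The imprinted Dlk1-Dio3 locus on distal chromosome 12, which holds a large miRNA cluster, had 61 assays on the cards, 43 of them undetected in both groups. Of 18 tested, 17 were lower in M1, none was higher and miR-673-5p (-0.69) was not called, with a median of -5.91. All 18 were detected in every bone marrow replicate and 7 in every M1 replicate, and 10 of the 17 were undetected in M1. Those not detected in every M1 replicate entered the test through bone marrow alone, so the count and median lean toward decreases. After quantile normalization 10 were lower and 3 higher, with a median of -1.50. miR-411 (at least 2040-fold), miR-136 (at least 1826-fold), miR-434-3p (at least 1338-fold) and miR-379 (at least 1174-fold) had the largest bounds, and miR-127, which silences the imprinted gene Rtl1, was at least 845-fold lower, at -12.71, -13.04 and -13.30 in bone marrow.

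The repeat families of the Sfmbt2 locus, a rodent-specific cluster, had 6 of 8 assays lower and none higher, with a median of -10.97. All 8 were detected in every bone marrow replicate and 3 in every M1 replicate. The 5 undetected in M1 entered the test through bone marrow alone, and the median falls among their bounds. miR-467a, miR-467b, miR-467c, miR-467d and miR-467e were detected in bone marrow and not in M1, whereas the star strands miR-467a* (-0.71) and miR-467b* (-0.96) were detected in both and not called. Against snoRNA202 alone or both snoRNAs all 8 assays were called lower, these star strands included. Against MammU6 alone or the mean of common assays 5 were. miR-467a was at -9.46, -9.69 and -9.92 in bone marrow, and miR-467a* at -5.11, -4.36 and -4.39 in bone marrow and -5.22, -5.25 and -5.51 in M1. Near-identical copies in this family can share signal between assays, so these values are uncertain. The embryonic stem cell clusters had 5 of 21 assays tested, 2 of them lower and none higher, and this direction turned after quantile normalization (3 higher, 1 lower). The 3 not called, miR-295, miR-302b and miR-367, were detected in every M1 replicate but not in every bone marrow replicate. On card A the Ct limit stood at a mean level of -20.19 in bone marrow and -22.55 in M1. A late M1 signal can therefore lie below the limit of bone marrow, and these counts do not show the clusters to be lower in M1.

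Brain-enriched miRNAs held large differences in both directions. Of 7 tested, 4 were higher and 2 lower, against 25.2% and 44.3% over all assays, with a median of 1.88. miR-9, which is also raised in myeloid leukaemias with MLL fusions, was -12.51, -13.37 and -15.11 in bone marrow and -7.53, -8.26 and -7.19 in M1. Replicates of bone marrow spread widely but all lay below M1 (64-fold higher, log2 difference 6.0, SE 0.54, adjusted p = 4.6e-07). The other arm, miR-9*, was -19.18 and -16.54 in the 2 bone marrow replicates measured and -11.85, -11.92 and -11.50 in M1, 68.8-fold higher (log2 difference 6.10, SE 0.61, adjusted p = 2.6e-06). miR-138 was 3.69-fold higher, and miR-219, undetected in bone marrow, was at -15.16, -15.72 and -14.77 in M1, at least 31.4-fold higher.

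miR-218 and miR-124 were the lower ones. miR-218, encoded in introns of the Slit genes, was -8.44, -8.61 and -8.70 in bone marrow and -19.97, -19.68 and -19.00 in M1, 2005-fold lower (log2 difference -10.97, SE 0.41, adjusted p = 5.2e-11). miR-124, a neuronal miRNA, was -10.70, -10.93 and -11.13 in bone marrow and undetected in M1, at least 3162-fold lower.

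Some of the largest differences lay outside these lists. miR-139-5p, encoded in an intron of Pde2a, was -3.83, -3.49 and -3.72 in bone marrow and -9.60, -9.72 and -9.64 in M1, 62.8-fold lower (log2 difference -5.97, SE 0.23, adjusted p = 5.2e-11). The other arm, miR-139-3p, was -5.59, -5.71 and -5.69 in bone marrow and undetected in M1, at least 120816-fold lower, so both arms of this hairpin were lower. The largest decrease measured in both groups was miR-801, which is thought to be a fragment of a small nuclear RNA, with -3.43, -3.69 and -3.54 in bone marrow and -16.41, -17.61 and -15.11 in M1 (7248-fold, log2 difference -12.82, SE 0.59, adjusted p = 3.9e-10). miR-204, miR-296-5p and miR-682 were detected in bone marrow only, at least 13244-fold, 15955-fold and 16523-fold lower.

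The 23 assays detected in every M1 and no bone marrow replicate were led by a rat-named assay, rno-miR-532-5p, at -8.03, -8.44 and -7.72 in M1 (at least 4019-fold higher), and by let-7a, with the doubt given above. The mouse-named miR-532-5p was detected in both groups, at -7.46, -7.50 and -7.94 in bone marrow and -6.01, -6.38 and -6.47 in M1, 2.54-fold higher (log2 difference 1.35, SE 0.28, adjusted p = 0.00075), so assays of the same name gave the same direction and different sizes. miR-324-3p was at -9.41, -10.41 and -9.76 in M1 and undetected in the 2 bone marrow replicates measured, at least 1158-fold higher, while the other arm miR-324-5p was at -11.80 ± 0.28 and -11.25 ± 0.37 and not called. miR-674 (at least 426-fold) was higher together with its star strand miR-674* (4.38-fold), and miR-547 (at least 819-fold), rno-miR-352 (at least 498-fold), let-7d* (at least 407-fold), miR-30b* (at least 399-fold) and miR-500 (at least 254-fold) were also detected in M1 only. Among increases measured in both groups, miR-375, an islet miRNA, was 6.31-fold higher at late Ct values, and miR-805 was 4.89-fold higher at earlier ones (-5.85, -5.91 and -5.77 in bone marrow, -3.37, -3.52 and -3.76 in M1).

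The balance between the arms of a hairpin was tested within each replicate, as the level of 1 arm minus that of the other. Of 142 hairpins with both arms on the cards, 43 had both arms detected in every replicate present of both groups, and 20 of the 43 were called (46.5%), 5 toward the first arm in M1 and 15 toward the second, with a median of -0.69. Most of these pairs, 34, have their arms on different cards, where any unequal shift of the controls enters the difference. The mean of the 3 controls moved by 0.534 cycles less on card B than on card A, and that of the 2 snoRNAs by 0.108 less. The median was -0.92 for the 34 pairs across cards and 0.44 for the 9 pairs on 1 card. With the 2 snoRNAs as controls, 8 hairpins were called each way, and against common assays 8 and 9.

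miR-30a and miR-30a* showed the largest change of balance. miR-30a itself was -6.44, -6.30 and -6.66 in bone marrow and -6.16, -6.68 and -5.94 in M1, and the groups overlapped. miR-30a* was -5.31, -5.56 and -5.21 in bone marrow and -11.12, -11.28 and -11.04 in M1, 55.1-fold lower (log2 difference -5.79, SE 0.21, adjusted p = 4.3e-11). The guide minus the star strand was therefore -1.13, -0.74 and -1.45 in bone marrow and 4.96, 4.60 and 5.10 in M1, a change of 5.99 (SE 0.34, adjusted p = 4.3e-10), many times the control shift between cards.

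miR-503 moved the other way, with the guide lower and the star strand not called (-10.68 ± 0.53 in bone marrow and -10.84 ± 0.33 in M1). Its guide minus star difference was 3.94, 3.89 and 3.15 in bone marrow and -1.09, -1.17 and -0.44 in M1, a change of -4.56 (SE 0.31, adjusted p = 3.1e-09). miR-21 changed by 2.67, since miR-21* was 7.8-fold lower (a call lost after quantile normalization, at -0.28) while miR-21 was not called, and let-7g changed by 2.67 with let-7g* 6.83-fold lower. miR-744 (-2.89), miR-135a (-2.88), miR-106b (-2.56), miR-15a (-2.30) and miR-27a (-2.13) moved toward the star strand. Of the 9 pairs on 1 card, miR-532-5p against miR-532-3p (1.6, adjusted p = 0.0011) and miR-542-5p against miR-542-3p (-1.23, adjusted p = 0.048) were called; when these 9 were fitted alone, only the first remained called.

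**Figure D5:**
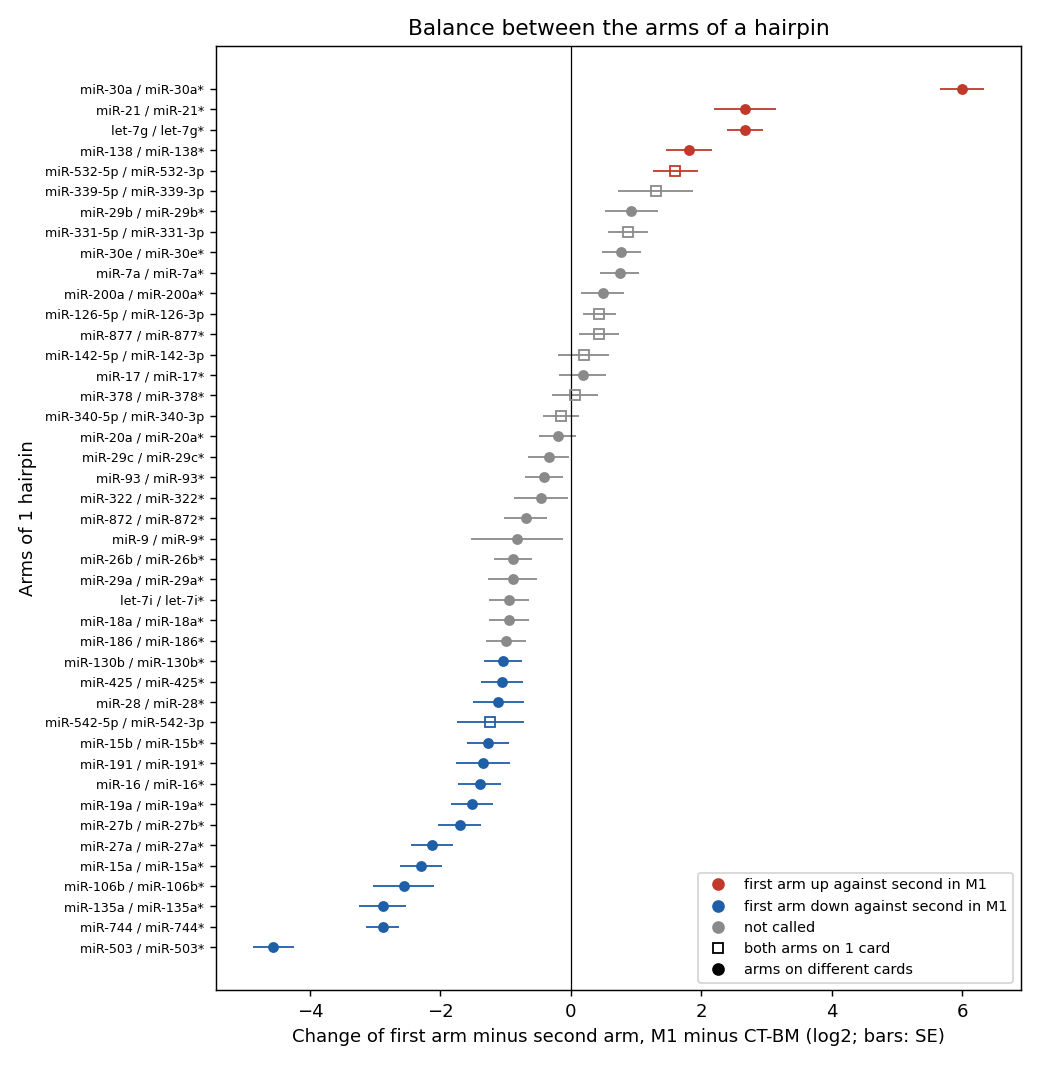
Change between CT-BM and M1 in the level of the first arm minus the second arm of each of 43 hairpins (log2; bars are SE from the limma fit over 12 replicates). Squares have both arms on 1 card and circles have arms on different cards; miR-30a lies farthest right and miR-503 farthest left.

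Among all 65 tested star strands, against 25.2% higher and 44.3% lower over all assays, 26 were higher in M1, 19 lower and 20 not called. Their median was 0.21. This direction turned with the scaling: 16 were higher and 27 lower against snoRNA202 alone (median -0.56), and the median was -0.07 against snoRNA135 alone and -0.31 against both snoRNAs.

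The rat-named assays were paired with mouse assays by name alone, and whether both read the same RNA was not tested. Names shared by a rat and a mouse assay made 31 pairs, and in 10 of them both assays were tested. miR-1, miR-224, miR-381 and miR-489 were lower by both, miR-190b, miR-345-3p and miR-532-5p were higher by both, and miR-339-3p, miR-351 and miR-7a* were called by neither. For miR-207, miR-743a, miR-135a*, miR-20a*, miR-24-1* and miR-28*, 1 assay was tested while its namesake was undetected in both groups. The rat assay of miR-207, for example, stood at -4.87 in bone marrow and -6.37 in M1 (called lower), with the mouse assay at the Ct limit. Sizes differed within pairs, as for miR-345-3p, which was 2.42-fold higher by the rat assay and at least 34.5-fold by the mouse assay, whereas miR-190b gave log2 differences of 1.39 and 1.38.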

How the data were processed

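Total RNA was extracted with a mirVana kit, then reverse transcribed, preamplified and amplified for 40 cycles on TaqMan rodent cards, per the labels' protocols. The samples that carry 1 replicate title were joined as 1 replicate. The deposited table lists a Ct for every well, in PCR cycles, and the authors' mean Ct of an assay on a card; per the file headers neither is normalized to controls. The detection limit and software version are not given in the sources used here. Columns of per-sample values not used here numbered 0. The number of replicates and the Ct limit of 35, not a read depth, set the precision.

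A well that was undetermined or had a Ct over 35 was treated as undetected and given a Ct of 35, and repeat wells on a card were averaged (Python 3.11.15, pandas 2.3.3, numpy 2.4.6). Levels entered a linear model of 4 group means over all 12 replicates in limma 3.58.1 (R 4.3.3; lmFit, then eBayes), with Benjamini-Hochberg adjustment over the 325 tested assays and, for arm balance, over 43 hairpins. Shares were compared with an exact permutation test (SciPy 1.17.1), and plotting used matplotlib 3.10.9. Tested on simulated data of 325 assays, the fit called 46.7% of true 2-fold changes, 93.3% of true 4-fold changes and 0.976% of unchanged assays. The simulated assays varied independently and were all detected, with no Ct limit, missing values or error shared through the controls. These rates therefore do not cover the bounds or the choice of scaling in the real data. Alternatives were single controls, 2 snoRNAs, common assays, quantile normalization, Ct limits of 32 and 40, other filters and fits, each card alone, a replicate block and leaving out replicates.

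The miRNAs, lists and the tests were chosen with earlier results of these data known. All list members could be named, and beside them the 15 largest increases and decreases measured in both groups without overlap, the 10 largest bounds each way, the 10 earliest Ct per card and group and the 10 largest arm changes. The text gives a selection of these. Rat-named pairs, neighbouring genes and the pairs with a shared seed outside that rule were chosen after their values were seen.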

Additional observations from a re-analysis of the deposited data

Results flagged for a closer look

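Y1, a small cytoplasmic RNA that binds the Ro protein and was not among the 3 controls used, gave a signal far from the other small RNA assays. Its Ct on card A was 26.5, 26.6 and 26.7 in the bone marrow replicates and 20.6, 20.9 and 20.0 in M1, a mean shift of -6.10 cycles. On card B it was undetected in bone marrow and had a mean Ct of 22.2 in M1, a shift of -12.84 cycles with bone marrow at the Ct limit. The 3 controls used shifted by -2.67 to -2.17 cycles on card A and by -2.59 to -0.784 on card B, and U87 by -1.40 and -1.18. It stands here because the comparisons do not use this assay; the plant control ath-miR159a was undetected in every replicate of both groups.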

How the results depend on the processing

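Of 226 calls in M1 against bone marrow, the count fell to 138 with only assays detected in both groups fitted (78 lower), 147 on card A alone (45 higher) and 79 on card B alone (37 higher, 42 lower), all from fewer assays. Higher calls numbered 53 against snoRNA202 alone and 141 after quantile normalization, against 82; the cause was not tested. Arm balance gave 1 call with the 9 pairs on 1 card. Leaving out each replicate gave 214 to 224 calls, 74 to 85 higher and 138 to 146 lower, 17 to 23 arm calls and a difference in detected share of -7.47 to -6.64 points. With the replicate block 224 were called, 80 higher and 144 lower. Deviations from the group means correlated at -0.39, -0.27 and -0.22 between same-numbered replicates over 187 assays. No M1 replicate correlated best with the bone marrow replicate of its own number. Whether the numbers stand for a shared run is not settled by this. Without M1 replicate 2 and bone marrow replicate 3, chosen after seeing the data, 211 were called. Without a fold minimum 254 were called, and MammU6 alone without M1 replicate 2, also added later, gave 105 higher and 119 lower. Of 143 named and tested assays 103 were called, and 83 kept call and direction in every one of 24 settings that gave them a value. After quantile normalization miR-542-5p (0.66, not called) and miR-196a* (4.39, called higher) turned, and the cause was not tested. Late Ct values limit the size of differences near the Ct limit, which are bounds.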

Other observations

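Detected Ct values were not spread evenly within a cycle. The share lying in the last 10% of a cycle before a whole number, which would be 10% if spread evenly, was 38% on card A of bone marrow replicate 3 and 37.5% on card A of M1 replicate 2. It was 19.9% and 21.7% on card A of the other bone marrow replicates and 15.5% and 16.2% on card A of the other M1 replicates. On card B it ranged from 14.7% to 22.5% in bone marrow and from 11.4% to 14.2% in M1. With both replicates that stand apart left out, 78 assays were higher and 133 lower in M1, with a median difference of -0.53.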
